A study of Mus musculus with 151 samples.

Results

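The 46 P14_iOHCs of this series were selected into sets on their own level of *Slc17a8*, the gene of the vesicular glutamate transporter vGlut3, as the upper 23 (Slc17a8-high iOHCs) and the lower 23 (Slc17a8-low iOHCs). They are 46 of the series' single cells, whose other members are 55 P14_WT IHCs and 50 P30_WT IHCs. Each library holds the RNA of 1 manually picked cochlear cell. The P14_iOHCs, or induced OHCs, came from vGlut3-P2A-iCreER/+; Tbx2 flox/-; Ai9/+ mice at postnatal day 14, and the P14_WT IHCs from vGlut3-P2A-iCreER/+; Ai9/+ mice of that age. All carried the iCreER knock-in at *Slc17a8* itself, were of the C57BL/6 strain, and had been given tamoxifen at P2 and P3, which switches on both the recombinase and the red Tdtomato reporter of Ai9. From the mutants only the smaller Tdtomato+ cells were taken, so cells that had kept the large shape of an IHC are missing by choice. The labels name no animal for any cell, so the 46 iOHCs count as 1 sample. The cells are not replicates of a condition, no test was run between them, and every ± below is the SD over cells.

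Inner hair cells (IHCs) are the receptors that pass sound to the auditory nerve through ribbon synapses, and vGlut3 loads the vesicles of those synapses with glutamate. Outer hair cells (OHCs) amplify sound by changing length, driven by the motor protein Prestin, and lose most *Slc17a8* as they mature. Tbx2 is a T-box transcription factor of IHCs, and the mice were made to lose it from IHCs after birth. The question here is which other genes were higher or lower in the iOHCs that held more *Slc17a8*.

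Levels are given as CPM, the count of a gene per 1000000 counts of its cell. The Slc17a8-high iOHCs held from 35.2 to 935 CPM of *Slc17a8* with a median of 164 CPM, and the Slc17a8-low iOHCs from 0 to 34.03 CPM with a median of 1.33 CPM. These values chose the cells and are no finding. The last cell inside the upper set held 35.2 CPM and the first cell outside it 34.03 CPM, so the border ran through a continuous range. The P14_WT IHCs held from 469.6 to 2138 CPM, and 3 iOHCs reached that range. At the other end, 6 iOHCs had no count and 8 had at most 3 counts, which a depth of 8659907 to 22963196 counts in the Slc17a8-low iOHCs places at or below 0.346 CPM.

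**Figure D1:**
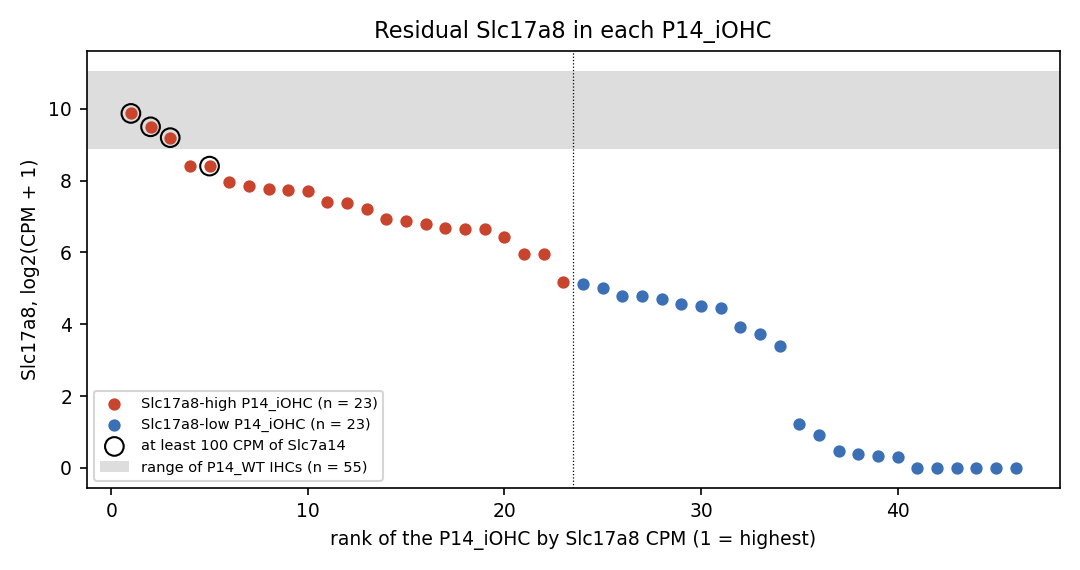
Level of *Slc17a8* on a log2(CPM + 1) axis against the rank of each of the 46 P14_iOHCs, with the 23 Slc17a8-high cells in red, the 23 Slc17a8-low cells in blue and the range of the 55 P14_WT IHCs as a grey band. Open circles mark the 4 cells with at least 100 CPM of *Slc7a14*, which take ranks 1, 2, 3 and 5. Levels fall without a gap across the dotted border between ranks 23 and 24.

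The gene lies on the minus strand of chromosome 10 of GRCm38 (chr10:89574020-89621253, ENSMUSG00000019935.16). RefSeq (GRCm38.p6) lists 2 starts. The 250 bases before the upstream one (chr10:89621250-89621499, minus strand) are shown because this locus both sorted the cells and drives the recombinase. Capitals mark the only match in this window to GGTGTG, the core of the T-box motif, searched on both strands, and the window of the other start (chr10:89599816-89600065) holds 0 matches:

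Slc17a8: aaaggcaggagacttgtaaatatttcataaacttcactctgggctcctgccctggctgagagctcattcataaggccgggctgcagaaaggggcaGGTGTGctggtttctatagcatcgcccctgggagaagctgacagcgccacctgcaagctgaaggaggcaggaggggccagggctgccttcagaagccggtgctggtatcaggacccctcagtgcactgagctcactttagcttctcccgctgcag

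A match to these letters was present in 16.3% of 32851 such windows and in 14.9% of the 10557 windows at the tested genes. It was present in 15.9% of 157 windows at genes called higher in the Slc17a8-high iOHCs and in 14.9% of 1124 windows at genes called lower. These shares describe letters only and show no binding.

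A gene was called higher or lower when the log2 ratio of its mean CPM and the difference of its mean log2(CPM + 1) both exceeded 1 in the same direction. This is a rule of size, without a p-value. Of 11159 genes that reached 5 counts in 10 or more iOHCs, 168 were called higher in the Slc17a8-high iOHCs (1.51%) and 1101 were called lower (9.87%). Over all these genes the median difference was -0.31 on the log2 scale, so a difference near that value is the level of the whole table. Of the calls, 48 of the higher and 604 of the lower calls were on genes that reached 5 counts in 10 cells of the set where they were high but not in the other, and such genes had to differ. For none of the called genes did the ranges of the Slc17a8-high and Slc17a8-low iOHCs separate. Without the highest cell of each gene, 76 of the higher and 745 of the lower calls remained. The same split of the P14_WT IHCs, 27 cells against 27, called 210 genes higher (1.88%) and 189 lower (1.69%), so the lower calls made up a larger share in the iOHCs than in these IHCs, a difference that was not tested.

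Levels of several IHC markers stood out in the cells with the most *Slc17a8*. *Slc7a14*, which encodes an amino acid transporter family member used as an IHC marker (chr3:31202858-31310378), had 203 CPM in the cell of rank 1, 126 CPM in that of rank 2, 170.3 CPM in that of rank 3 and 319.97 CPM in that of rank 5. No other iOHC exceeded 0.11 CPM. It was detected in 6 of 23 Slc17a8-high iOHCs (26.1%, exact 95% binomial interval 10.2 to 48.4%) and in 1 of 23 Slc17a8-low iOHCs (4.35%, 0.11 to 21.9%), against all 55 P14_WT IHCs at 99.0 to 960.4 CPM. These intervals cover counting error only. With counts in so few iOHCs, *Slc7a14* missed the filter and was not among the tested genes.

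*Otof*, which encodes the calcium sensor otoferlin of the ribbon synapse, ran along with it. The cells of rank 1, 2, 3 and 5 held 1499.6, 3235, 2307 and 1319.6 CPM of *Otof*, while the other 19 Slc17a8-high iOHCs lay between 0.104 and 816 CPM. The P14_WT IHCs held 3657 ± 925 CPM and none was below 2168 CPM. Across all Slc17a8-high iOHCs *Otof* averaged 615 ± 799 CPM, against 245 ± 214 CPM in the Slc17a8-low iOHCs, a log2 ratio of means of 1.32 but a difference in mean log2(CPM + 1) of only 0.45. Without those 4 cells, which were left out after their values were seen, the means were 304 and 245 CPM and the difference became -0.20. *Otof* was not called, and its higher mean rested on these cells.

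*Calb2*, which encodes the calcium buffer calretinin, reached 17827 CPM in the cell of rank 3, 8836.5 CPM in that of rank 5 and 6150.5 CPM in that of rank 1. The cell of rank 2 held 615 CPM. All other iOHCs held at most 4091 CPM and the P14_WT IHCs at least 6371 CPM. The means were 2922 ± 3759 CPM in Slc17a8-high and 1386 ± 849.6 CPM in Slc17a8-low iOHCs, and the gene was not called (0.80).

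*Tbx2* itself was counted over the whole gene, and the floxed part is exon 2 alone, so its count does not show whether a cell lost the gene. It was at 264, 427, 268 and 136 CPM in the cells of rank 1, 2, 3 and 5. The other 19 Slc17a8-high iOHCs ranged from 0 to 214 CPM with a median of 37.6 CPM, and the Slc17a8-low iOHCs from 0.115 to 192 CPM with a median of 37.8 CPM. In P14_WT IHCs *Tbx2* was at 260.0 ± 127 CPM. Of the 23 cells with the most *Tbx2*, 13 were Slc17a8-high and 10 Slc17a8-low. The difference between the sets was -0.40 in mean log2(CPM + 1), close to the median over all genes, whereas the ratio of means was positive (0.61 on the log2 scale).

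OHC genes were present in both sets, with ranges that overlapped widely, as the label of these cells asks. *Slc26a5*, which encodes Prestin, was detected in all 46 iOHCs, at 1015 ± 564 CPM in the Slc17a8-high and 1276 ± 779 CPM in the Slc17a8-low iOHCs. In P14_WT IHCs it was at 0.146 ± 0.757 CPM. *Ocm*, which encodes the OHC calcium buffer oncomodulin, ranged from 614 to 74981 CPM with a median of 43492 CPM in Slc17a8-high and from 8307 to 53543 CPM with a median of 38571 CPM in Slc17a8-low iOHCs. The differences of *Slc26a5* (-0.27), *Ocm* (0.09), *Lbh* (-0.18) and *Sri* (-0.04), of which the last binds calcium, were all smaller than the SD over cells. *Ikzf2*, which encodes the OHC transcription factor Helios, had means of 341 ± 388 and 276 ± 125 CPM and was also not called (-0.33).

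The cells of rank 1, 2, 3 and 5 lay below the median of the other Slc17a8-high iOHCs in these OHC genes. Their *Slc26a5* was 514, 142, 799 and 219.7 CPM, and their *Ocm* 9093, 614, 16575 and 23598 CPM, against medians of 1027 and 47044 CPM in the other 19 Slc17a8-high iOHCs. *Ikzf2* had no count in the cell of rank 1 and stayed at or below 197 CPM in the other 3. The cell of rank 2 stood apart most, with 0.280 CPM of *Lbh* and a mean log2(CPM + 1) over the OHC genes of 2.87, within the P14_WT IHC range of 1.66 to 3.11, while all other iOHCs were above that range. The cell of rank 4, with 341 CPM of *Slc17a8*, showed neither pattern: it had no count of *Slc7a14*, 384 CPM of *Otof* and 60339.5 CPM of *Ocm*.

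**Figure D2:**
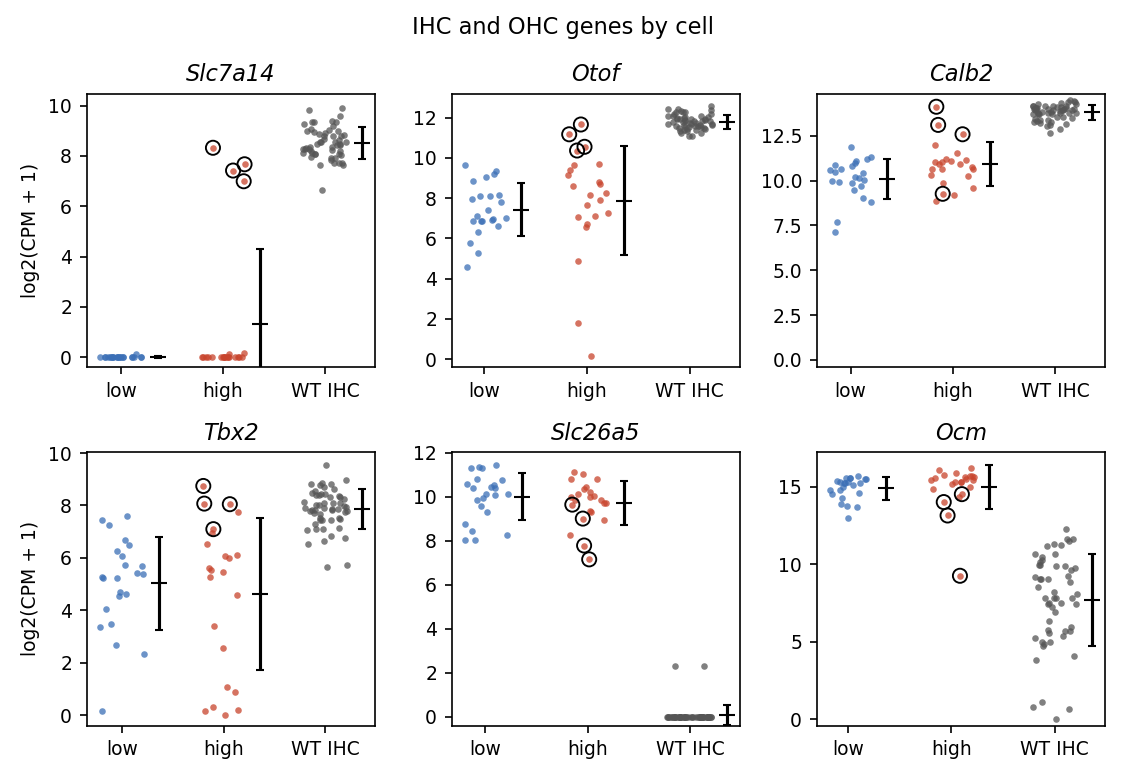
Levels of 6 genes on log2(CPM + 1) axes in each Slc17a8-low iOHC (blue, n = 23), Slc17a8-high iOHC (red, n = 23) and P14_WT IHC (grey, n = 55), with bars for the mean ± SD. Open circles mark the 4 cells with at least 100 CPM of *Slc7a14*, which hold the highest *Otof* of all iOHCs and less *Slc26a5* and *Ocm* than the medians of the other Slc17a8-high iOHCs (1027 and 47044 CPM), while the remaining red and blue points overlap.

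Beyond the single markers, the study's own lists of IHC and OHC genes were counted. The study drew them from P30 IHCs and P30 OHCs, not from these iOHCs. Of 388 IHC genes other than *Slc17a8*, 317 passed the filter, and 14 were called higher (4.42%) and 38 lower (12.0%) in the Slc17a8-high iOHCs, beside 1.51% and 9.87% of all genes. Their median difference was -0.22, against -0.31 over all genes. Of the OHC genes, 140 passed and 11 did not, and of those that passed 0 were called higher and 6 lower (4.29%), with a median difference of -0.26. Of the 14 IHC genes called higher, 4 passed the filter through the Slc17a8-high iOHCs alone, beside 48 of 168 over all genes. Of the 6 OHC genes called lower, 3 passed it through the Slc17a8-low iOHCs alone, beside 604 of 1101 over all genes. With all iOHCs, the medians of both lists lay near that of all genes. The share of IHC genes called higher was above that of all genes and the share of OHC genes called lower was below it, which was not tested. The mean log2(CPM + 1) over the IHC genes was 2.67 ± 0.874 in the Slc17a8-high, 2.95 ± 0.607 in the Slc17a8-low iOHCs and 4.39 ± 0.272 in the P14_WT IHCs, and that over the OHC genes was 5.01 ± 0.674, 5.32 ± 0.502 and 2.31 ± 0.399. Ranked by the IHC genes, 9 of the upper 23 iOHCs were Slc17a8-high. Ranked by the OHC genes, 8 of the upper 23 were Slc17a8-high. Without the 4 cells rich in *Slc7a14*, 10 of 317 IHC genes were called higher and 59 lower, beside 1.69% and 11.7% of all genes. The median differences were then -0.525 for IHC genes, -0.005 for OHC genes and -0.393 for all genes. Without the 13 iOHCs whose supporting cell marker level exceeded every P14_WT IHC, they were 0.097, -0.446 and -0.117.

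**Figure D3:**
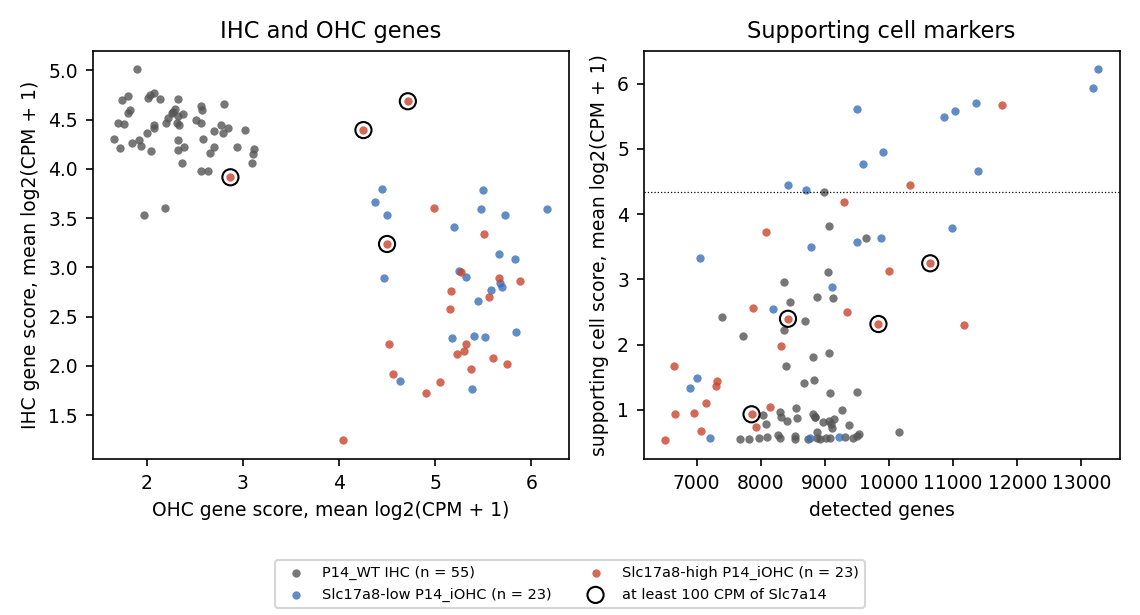
Left, mean log2(CPM + 1) over the IHC genes against that over the OHC genes, and right, the same mean over supporting cell markers against the number of detected genes, for each Slc17a8-high iOHC (red, n = 23), Slc17a8-low iOHC (blue, n = 23) and P14_WT IHC (grey, n = 55). Of the 4 circled cells with at least 100 CPM of *Slc7a14*, 1 lies in the OHC range of the P14_WT IHCs, and 2 red and 11 blue points lie above the dotted line, the highest supporting cell score of a P14_WT IHC.

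Among the called IHC genes, *Dnajc5b*, a relative of the cysteine string protein of synaptic vesicles (chr3:19508595-19610862), had the largest difference in the higher direction (3.30). It ranged from 0 to 816 CPM with a median of 45.5 CPM in Slc17a8-high and from 0 to 126 CPM with a median of 0.0814 CPM in Slc17a8-low iOHCs. At least 50 CPM was found in 11 Slc17a8-high and 2 Slc17a8-low iOHCs and in all 55 P14_WT IHCs, and its difference was 2.50 without the 4 cells rich in *Slc7a14*. *Syt14*, a synaptotagmin family member, was at 104 ± 120.0 and 28.9 ± 49.3 CPM (1.94) and at 296 CPM in P14_WT IHCs. *Tln2*, which encodes talin 2, a link between integrins and actin, was at 32.1 ± 44.3 and 4.11 ± 10.6 CPM (1.89), and *Peak1*, a pseudokinase of the cytoskeleton, at 116 ± 117 and 41.4 ± 52.6 CPM (1.82). *Pdzrn3*, a ubiquitin ligase, and *Arhgdig*, an inhibitor of small GTPases, showed 1.55 and 1.46. All 6 were higher still in the P14_WT IHCs. *Dnajc5b*, *Tln2* and *Pdzrn3* passed the filter through the Slc17a8-high iOHCs alone, and such genes had to differ. Within the P14_WT IHCs split by their own *Slc17a8*, none of the 6 was called.

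The genes called higher with the largest ratios of means included *Dnajc5b* and *Tln2*. *Shc2*, a signalling adaptor, averaged 31.998 ± 65.5 against 3.71 ± 9.45 CPM, and *Cdc14b*, a phosphatase, 44.9 ± 73.6 against 5.75 ± 11.3 CPM. *Mettl4*, a methyltransferase, *Sv2a*, a synaptic vesicle glycoprotein, and the predicted gene *Gm10432* had log2 ratios of 2.63, 2.44 and 2.45. The SD exceeded the mean in both sets in each of these 7 genes. Of them, *Dnajc5b*, *Tln2*, *Shc2*, *Mettl4* and *Gm10432* passed the filter through the Slc17a8-high iOHCs alone. Unlike the IHC genes above, *Cdc14b*, *Mettl4*, *Gm10432* and *Sv2a* had lower means in the P14_WT IHCs (20.5, 23.1, 23.2 and 16.9 CPM) than in the Slc17a8-high iOHCs.

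Few genes of the ribbon synapse were called. Of 20 listed genes for the ribbon and transmitter release 16 passed the filter, 11 had a positive difference, 2 were called higher (12.5%, beside 1.51% of all genes) and 0 lower, and the median difference was 0.41. *Cabp1*, which encodes a calcium-binding regulator of calcium channels, had counts in 11 Slc17a8-high iOHCs and in 1 Slc17a8-low iOHC, at 10.0 ± 18.5 against 0.430 ± 2.06 CPM. It reached 5 counts in 9 Slc17a8-high iOHCs and in 1 Slc17a8-low iOHC, so it passed the filter almost wholly through the set where it was high. *Dnm1*, which encodes the dynamin of vesicle retrieval, was at 129 ± 126 against 59.2 ± 62.3 CPM (1.20), and leaving out any 1 of 6 cells (replicates 1, 8, 15, 29, 40 and 43) took 1 of its measures to between 0.916 and 0.990 and ended the call. *Cabp2*, of the same calcium-binding family as *Cabp1*, ranged from 755 to 2783 CPM around a median of 2210.1 CPM in Slc17a8-high and from 348 to 2608 CPM around 1563 CPM in Slc17a8-low iOHCs. Its difference of 0.64 was not called. The scaffold gene *Bsn* went the other way (-0.81).

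*Calm2*, a gene of the calcium sensor calmodulin, leaned towards the Slc17a8-high iOHCs without being called. It ranged from 3939.8 to 20359 CPM with a median of 7272 CPM in Slc17a8-high and from 1176 to 8911 CPM with a median of 3992 CPM in Slc17a8-low iOHCs, and a Slc17a8-high cell was the higher of the pair in 86.0% of all 529 pairs of cells. Its difference of 0.999 and log2 ratio of 0.99 stood at the border of the rule and were not called. *Calm2* ran from 1176 to 5898 CPM in the 11 Slc17a8-low iOHCs with a supporting cell score above every P14_WT IHC. It ran from 3393 to 8911 CPM in the other Slc17a8-low iOHCs, and the 2 Slc17a8-high iOHCs with that high score held 3940 and 7821 CPM. The cells of rank 1, 2, 3 and 5 lay between 14699 and 20359 CPM, inside the P14_WT IHC range of 6029.7 to 27492 CPM, and all other Slc17a8-high iOHCs at or below 9371 CPM. Reads of genes with near-identical coding sequences, as in this family, can be hard to assign. *Atp2a3*, a calcium pump of the endoplasmic reticulum, was at 453 ± 345 against 254 ± 176 CPM (0.96). Of the 15 genes listed for calcium buffers and pumps 0 were called, and the median difference was 0.09.

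Genes common to all hair cells also sat above the table's median. Of 12 such genes 8 had a positive difference and 0 were called, with a median of 0.48. *Espn*, which encodes espin, an actin bundler of the stereocilia, was at 965 ± 357 CPM in Slc17a8-high, 567 ± 296 CPM in Slc17a8-low iOHCs and 808 ± 270.0 CPM in P14_WT IHCs (0.90). A Slc17a8-high cell was the higher in 79.96% of pairs. In the 11 Slc17a8-low iOHCs with a supporting cell score above every P14_WT IHC, *Espn* ran from 126 to 536 CPM. In the other Slc17a8-low iOHCs it ran from 446 to 1141 CPM, and the 2 such Slc17a8-high iOHCs with that high score held 704 and 633 CPM. The part of supporting cell RNA in these differences was not tested. *Pou4f3*, a transcription factor of all hair cells, *Cib2*, a part of the transduction complex, and *Barhl1*, a further hair cell transcription factor, had differences of 0.75, 0.61 and 0.59, and the unconventional myosins *Myo6* and *Myo7a* of 0.51 and 0.45. *Myo6* was at 1287 ± 453 against 942 ± 409 CPM, and its ranges overlapped (623 to 2289 against 258 to 1905 CPM). Among 26 tested genes of stereocilia and mechanotransduction the median difference was 0.29 and 1 gene was called higher (3.85%, beside 1.51% of all genes). This was *Xirp2*, an actin-binding gene at 146 ± 184 against 68.4 ± 82.1 CPM. Both of its measures stood at 1.09, and the smaller of them dropped to between 0.860 and 0.980 when any of 18 single cells was left out. *Eps8*, which regulates the length of stereocilia, had -1.06, and *Myo3a*, a myosin of their tips, 0.91.

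Supporting cell markers had the largest share of calls among the lists. Of 22 markers of supporting cells, the non-sensory cells that surround and touch hair cells, 16 passed the filter, and 13 were called lower (81.2%) and 0 higher in the Slc17a8-high iOHCs, beside 9.87% of all genes. All 16 differences were negative, with a median of -2.34. Of the 13, 5 passed the filter through the Slc17a8-low iOHCs alone, and 8 did not. *Gjb6*, which encodes connexin 30 of supporting cell gap junctions, ranged from 0 to 721 CPM with a median of 112 CPM in Slc17a8-high and from 0 to 4852 CPM with a median of 598 CPM in Slc17a8-low iOHCs. *Gjb2*, the partner connexin 26, was at 152 ± 263 against 505 ± 560.0 CPM (-2.68). *Otog* and *Tectb*, which encode otogelin and beta-tectorin of the tectorial membrane, showed -3.71 and -2.89. Among the defining markers, *Prox1* had no count in either set and *Fgfr3* averaged 0.0313 and 1.06 CPM, whereas *Sox2* averaged 4.92 and 14.2 CPM.

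On average, the Slc17a8-low iOHCs had both a higher mean log2 level of these markers and more detected genes per cell. The summed level of the markers ran from 2287 to 15856 CPM with a median of 5029 CPM in the Slc17a8-high iOHCs. It ran from 3616 to 21563 CPM with a median of 8301 CPM in the Slc17a8-low iOHCs. In the P14_WT IHCs it ran from 3803 to 9528 CPM with a median of 5438 CPM. This sum is carried by the most abundant of the markers. In the P14_WT IHCs it was at least 3803 CPM although *Gjb6* had a median of 0 CPM there. By itself it is therefore no measure of supporting cell RNA. The mean log2(CPM + 1) over the 22 markers was 2.17 ± 1.38 in Slc17a8-high, 3.72 ± 1.81 in Slc17a8-low iOHCs and 1.30 ± 0.969 in P14_WT IHCs, and it exceeded every P14_WT IHC in 2 Slc17a8-high and 11 Slc17a8-low iOHCs. The Slc17a8-low iOHCs had 9556 ± 1789 detected genes and the Slc17a8-high iOHCs 8462 ± 1543, at total counts of 16024403 ± 4788838 and 14804927 ± 4937741. Mitochondrial genes took 5.53 ± 1.51% and 6.95 ± 1.51% of the counts. Cells with Y-linked counts numbered 8 in the Slc17a8-low and 12 in the Slc17a8-high set, and cells with *Xist* 13 and 9. Without the 13 iOHCs whose marker level exceeded every P14_WT IHC, 495 genes were called higher and 720 lower, 4 supporting cell markers were called lower, and their median difference was -0.67. These cells were left out for their level of the same markers, and 11 of them were Slc17a8-low. The smaller marker difference therefore follows in part from that choice. The part of RNA from supporting cells in the result was not tested.

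**Figure D4:**
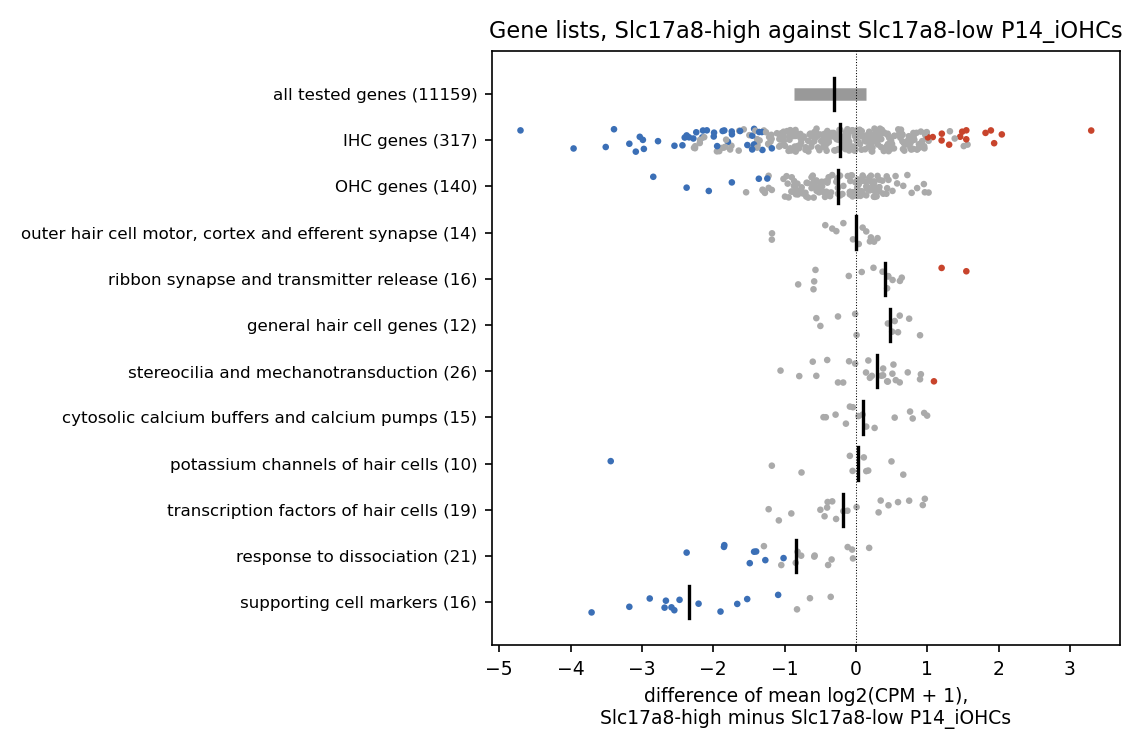
Difference in mean log2(CPM + 1), Slc17a8-high minus Slc17a8-low iOHCs, for the tested genes of 11 lists, 1 point per gene, with black bars at the medians, red points for genes called higher and blue points for genes called lower, and the quartiles of all 11159 tested genes as a grey bar. Supporting cell markers lie furthest to the left, with a median of -2.34, and the lists of ribbon synapse and general hair cell genes lie right of 0, with medians of 0.41 and 0.48.

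Of the 38 IHC genes called lower, 11 passed the filter through the Slc17a8-low iOHCs alone. *Gsn*, which encodes the actin-severing gelsolin, had the largest difference (-4.70), with a median of 4.59 CPM in Slc17a8-high and 1971 CPM in Slc17a8-low iOHCs. It was at 212 ± 567 CPM in P14_WT IHCs, below both iOHC means. The tetraspanin genes *Cd9* and *Tspan8* showed -3.96 and -3.39, and *Sparc*, which encodes a secreted matrix protein, ranged from 0 to 2006 CPM against 0.138 to 9965 CPM (-3.51). *Tmem221*, a membrane protein gene, was at 42.8 ± 65.7 against 199.99 ± 206 CPM. Of the 38, *Gjb6* is also a supporting cell marker here and *Fos*, *Fosb* and *Zfp36* belong to the list of genes that respond to dissociation, so the IHC list holds genes of other lists too. Without the 13 cells high in supporting cell markers, 19 of 317 IHC genes were called lower, beside 720 of 11159 over all genes (6.45%). In P14_WT IHCs split by *Slc17a8*, *Cd9* (12.2 against 92.6 CPM), *Sparc* (110.1 against 410.0 CPM), *Tspan8* and *Gjb6* (14.3 against 159 CPM) were again called lower in the Slc17a8-high cells. There 4 of 11 supporting cell markers were called lower and 0 higher, beside 1.69% of all genes.

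Among OHC genes, *P2rx2*, which encodes a channel gated by extracellular ATP (chr5:110339812-110343212), had the largest difference. It ranged from 0 to 529.7 CPM with a median of 152 CPM in Slc17a8-high and from 31.9 to 1375 CPM with a median of 767 CPM in Slc17a8-low iOHCs. At least 500 CPM was found in 1 Slc17a8-high and 16 Slc17a8-low iOHCs, and a Slc17a8-low cell was the higher in 90.0% of pairs. Its difference was -2.84, and it was -2.40 without the 13 cells high in supporting cell markers. In the P14_WT IHCs, cells the rule did not use, the split by *Slc17a8* gave 5.72 against 66.3 CPM, again called lower. There *Gjb6* was called lower too, and the cells with the most *P2rx2* (367, 349 and 304 CPM) also held 304, 489 and 443 CPM of *Gjb6*. Replicate 23 held 85.7 CPM of *P2rx2* without a count of *Gjb6*, and replicate 25 held 613 CPM of *Gjb6* without a count of *P2rx2*. The part of supporting cell RNA in this call was not tested. *C1ql1*, which encodes a secreted C1q-like protein and had no count in any P14_WT IHC, was at 33.2 ± 51.1 against 102 ± 122 CPM (-1.74). *Ctsc*, which encodes cathepsin C, *Pon2*, a paraoxonase gene, and *1600022D10Rik* showed -2.06, -2.37 and -1.36. Of these, *Ctsc* and *Pon2* passed the filter through the Slc17a8-low iOHCs alone. The remaining OHC gene called lower was *Efna1*, an ephrin gene outside the naming rule, at -1.24.

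**Figure D5:**
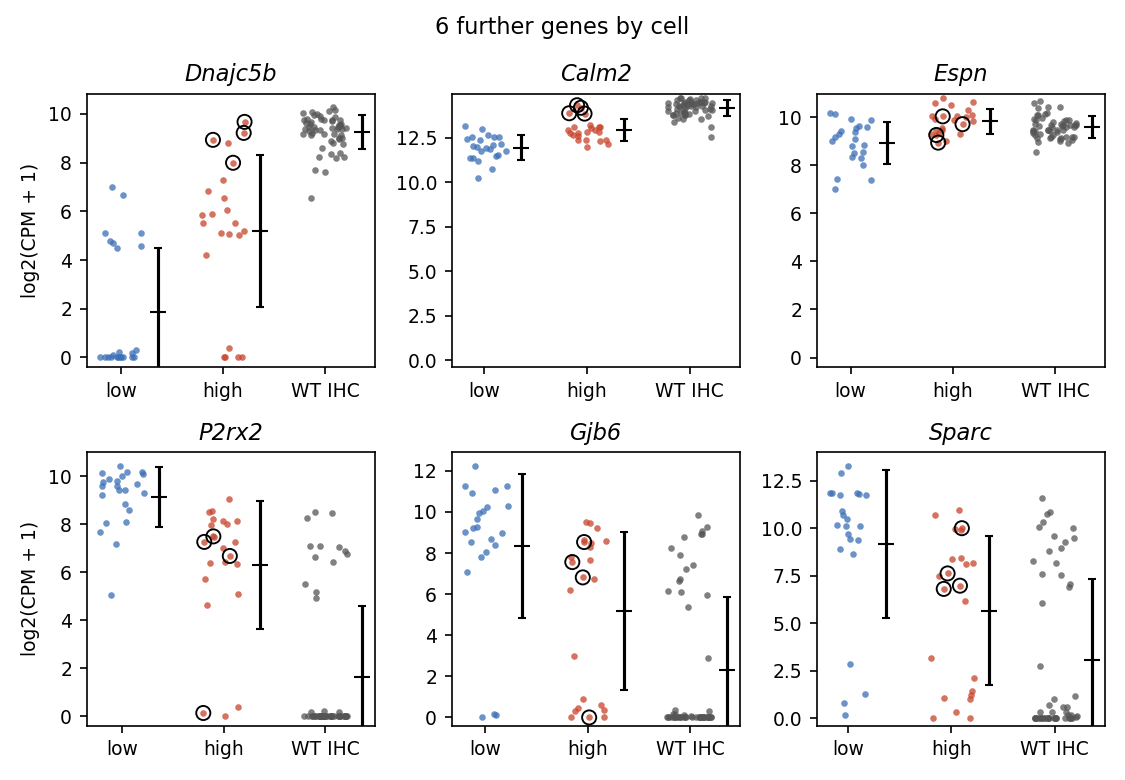
Levels of 6 further genes on log2(CPM + 1) axes in each Slc17a8-low iOHC (blue, n = 23), Slc17a8-high iOHC (red, n = 23) and P14_WT IHC (grey, n = 55), with bars for the mean ± SD and open circles for the 4 cells with at least 100 CPM of *Slc7a14*. For *Calm2* the circled cells sit among the P14_WT IHCs, for *P2rx2* most blue points sit above the red, and for *Gjb6* and *Sparc* both sets include cells near 0.

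The genes called lower with the largest ratios had counts in few Slc17a8-high iOHCs. Of 8 such genes, 7 passed the filter through the Slc17a8-low iOHCs alone and the other, *Tmem176b*, in 9 Slc17a8-low and 2 Slc17a8-high cells, so their low level in the other set follows in part from the filter. *Tgds*, of the nucleotide sugar dehydratase family, had 0 counts in all 23 Slc17a8-high iOHCs and 7923 counts over 12 Slc17a8-low iOHCs, at least 2440.0-fold lower against a floor of 3 counts over the Slc17a8-high set. *Ptgds*, which encodes a prostaglandin D2 synthase, had 57 counts in 3 and 25526 counts in 16 cells, or 0.152 ± 0.527 against 64.9 ± 95.2 CPM. *Gstt3*, a glutathione transferase gene, had 2 counts in 1 and 7420 counts in 12 cells. *Krt19* (keratin 19), *Aldoc* (aldolase C), *Snx7* (a sorting nexin), *Tmem176b* (a membrane protein) and *Col11a1* (a fibrillar collagen) were at 3.37, 2.42, 1.01, 1.04 and 0.121 CPM in Slc17a8-high and at 100.1, 61.8, 45.1, 37.2 and 28.1 CPM in Slc17a8-low iOHCs. None of the 8 was detected in more than 18 Slc17a8-low iOHCs. Without the 13 cells high in supporting cell markers, *Ptgds*, *Tgds*, *Krt19* and *Aldoc* were still called lower and the other 4 were not. Outside this set, *Tgds* was detected in P14_WT IHCs too, at 12.4 ± 25.1 CPM.

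Among the other lists, few genes were called except for those that respond to dissociation. Of 14 tested genes of the OHC motor, cortex and efferent synapse 0 were called, with a median difference of -0.00066. The spectrin genes *Sptan1* and *Sptbn1* of the cell cortex had -1.18 and -0.43. Of 19 hair cell transcription factors 0 were called, with *Nr2f2* and *Rfx1* at -1.22 and -1.08 and *Sall3* and *Rfx3* at 0.97 and 0.94. Of 10 potassium channel genes 1 was called lower (10%, near the 9.87% of all genes). This was *Kcnj16*, an inward rectifier at 45.2 ± 83.2 against 310.2 ± 410.0 CPM and at 13.9 CPM in P14_WT IHCs, while *Kcnh2* showed 0.66. Immediate early and heat shock genes that respond to dissociation were called lower for 8 of 21 tested genes (38.1%, beside 9.87% of all genes) and higher for 0, with a median of -0.84. Of these, *Fos* was at 279 ± 315 against 1076 ± 1415 CPM, and *Zfp36*, *Ier2* and *Junb* showed -2.37, -1.85 and -1.49. Without the 13 cells high in supporting cell markers 1 of the 21 was called lower, beside 6.45% of all genes. Without replicate 14, 5 were called lower and *Junb* was no longer called (0.886 for the smaller measure).

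Most markers of further cell types missed the filter, with fibroblast markers as the main exception. Of 8 glia markers 4 were tested and 1 was called lower (25%, beside 9.87% of all genes). This was *Sox10*, a transcription factor of glia and of cochlear supporting cells, at 21.4 ± 55.8 against 71.5 ± 76.3 CPM, while the myelin gene *Mbp* averaged 0.530 and 5.51 CPM. *Cnp* showed -0.21. Of 7 fibroblast markers 4 were tested and 2 were called lower (50%, beside 9.87% of all genes), *Lum* (108 ± 282 against 571 ± 929.7 CPM) and *Dcn* (7.65 ± 24.3 against 75.1 ± 121 CPM), which encode matrix proteoglycans and had counts in 15 and 18 and in 8 and 16 cells, whereas *Col1a1* and *Pdgfra* showed 0.10 and 0.04. Of 10 neuron markers 2 were tested, *Nefl* (0.46) and *Nefm* (-0.18), and 0 were called. Of 8 immune cell markers *Cd68* alone was tested (-0.41), and of 5 blood markers 0 were. Of 5 sex-linked genes 4 were tested and 0 called, with *Ddx3y* at 1.95, *Eif2s3y* at 0.57, *Uty* at 0.50 and *Xist* at -0.86.

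Across the 46 cells the relation of *Slc17a8* to single genes varied. The Spearman rank correlation with *Slc17a8* was 0.33 for *Otof*, 0.12 for *Tbx2*, -0.19 for *Slc26a5*, 0.13 for *Ocm*, 0.57 for *Calm2*, 0.54 for *Dnajc5b* and -0.55 for *P2rx2* (n = 46 cells, as a description, since all share 1 sample and differ in depth). For the mitochondrial share it was 0.43 and for the number of detected genes -0.19. Of the 23 cells with the most *Slc26a5*, 9 were Slc17a8-high and 14 Slc17a8-low.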

How the data were processed

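Counts of 46 P14_iOHCs and 55 P14_WT IHCs were analysed, each cell in 1 library made with a Smart-Seq HT kit. The authors aligned the reads to GRCm38 (mm10) with HISAT2 2.1.0 and counted reads per gene with HTSeq 0.10.0, and the submitters' processing notes also name FastQC 0.11.9, Trimmomatic 0.39 and StringTie 1.3.5. What the authors deposited were the raw counts of 55291 genes, not normalized. Annotation release, strand setting and handling of multiply aligned reads are not given in the sources used here, so overlapping and near-identical genes may share reads. The number of mice is not given either.

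Each P14_iOHC was scaled to CPM (counts per 1000000 counts of the cell), and the cells were ranked by *Slc17a8*, with ties kept in the order of the table, and split 23 against 23. *Slc17a8* was left out of all counts of genes. A pseudocount of 1 CPM was used on the log2 scale. A count model was not used, because the labels name no animal and single cells of 1 sample give no test. In the P14_WT IHCs the same split left out 1 middle cell. Exact Clopper-Pearson intervals have a confidence level of 95%. No 2 of the 46 iOHC libraries were identical among 1035 pairs. The total counts of the iOHCs ran from 6059570 to 22963196, in a lower set up to 10267217 (7 Slc17a8-high and 5 Slc17a8-low cells) and an upper set from 11814928.

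Named genes were 11 markers of IHCs, OHCs and hair cells, the 8 called genes per direction with the largest ratio, up to 6 called IHC and OHC genes per direction by difference, and up to 4 genes of each other list by difference. The called ones had to have counts in 50% or more of the higher set's cells, to reach 10 CPM there and to stay called without their highest cell. Some genes that met these rules are not reported here. The genes of the lists, the members and the rules were chosen with earlier results of these data known. IHC and OHC genes are those named by the study, of which it lists 389 for IHCs. A cell was taken as Y-linked or *Xist* from at least 10 such counts. The calling step was tested on simulated data. Promoter windows came from RefSeq (GRCm38.p6), and coordinates from GENCODE, which matched 53292 symbols. Alternatives used TMM factors (edgeR 4.0.16), DESeq2 1.42.0 size factors, R 4.3.3, pandas 2.3.3, numpy 2.4.6, matplotlib 3.10.9 and scipy 1.17.1 under Python 3.11.15.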

Additional observations from a re-analysis of the deposited data

How the results depend on the processing

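The counts of calls depended on the threshold, the pseudocount and the cells compared. Scaling by TMM factors or DESeq2 size factors, summed counts of each set, thinning every cell to 6059570 counts and no filter on low counts left every count of calls within 1.5 times its value. A change over 2 on both measures left 5 genes higher and 147 lower, 2 IHC genes higher and 9 lower, 2 OHC genes lower, 4 supporting cell markers and 1 dissociation gene lower. A pseudocount of 0.1 gave 335 genes and 26 IHC genes higher. Without the 8 cells nearest to the split, 279 genes, 24 IHC genes and 4 OHC genes were higher. Without the 13 cells whose supporting cell score exceeded every P14_WT IHC, 495 genes were higher and 720 lower, 27 IHC genes higher and 19 lower, 4 supporting cell markers and 1 dissociation gene lower, and higher calls made up 40.7% of all calls instead of 13.2%. Since that score is the mean over the same supporting cell markers, their fewer calls follow in part from the choice of cells. In the lower set of totals (7 against 5 cells) 1053 genes were higher and 2302 lower, with 50 and 67 IHC genes and 12 and 17 OHC genes. In the upper set (16 against 18) 287 genes and 1 OHC gene were higher. There 5 dissociation genes were lower, beside 1132 of all genes (10.1%). Cells with Y-linked counts (12 against 8) gave 690 higher and 1861 lower, 37 and 70 IHC genes and 6 and 10 OHC genes. Cells with *Xist* (9 against 13) gave 492 genes, 28 IHC genes and 3 OHC genes higher. In these cells 15 OHC genes and 8 supporting cell markers were lower, beside 1486 of all genes (13.3%). These smaller sets hold fewer cells, and the cause of the changes was not tested. Without the 4 cells with at least 100 CPM of *Slc7a14*, an alternative chosen after seeing the data, 59 IHC genes were lower and 2 OHC genes higher, beside 1306 and 189 of all genes. Leaving out each cell in turn, also chosen after seeing the data, gave 162 to 205 genes higher and 1018 to 1248 lower, 11 to 21 IHC genes higher and 34 to 48 lower, 0 to 1 OHC genes higher and 6 to 8 lower, 12 to 14 supporting cell markers lower and 5 to 9 dissociation genes lower. Of 5394 values of the 87 named genes that were tested, 5387 moved by less than the SD within the sets and without a change of sign of a called gene. That SD was wide, at 2.97 for *Syt14* and 2.13 for *Otof*, and most of these settings left out 1 cell. The count therefore does not show that the values are stable. Called genes changed sign in the lower set of totals for *Gm10432* (-0.047), *Arhgdig* (-0.14) and *Dnm1* (-0.67) and in the cells with Y-linked counts for *Syt14* (-0.0041) and *Dnm1* (-0.96). No cell was over 3 median absolute deviations from the median in detected genes or mitochondrial share, and so that alternative changed nothing. No paired analysis was possible because the replicate numbers only number single cells and no result comes from a test. A total of 6059570 to 22963196 counts per iOHC limits the genes near 0, and the shared sample limits all statements to these 46 cells.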
